A study of Mus musculus with 23 samples.

Results

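The cytosolic ribosomal proteins are the protein parts of the ribosome that translates nuclear messages. They were taken from the count files by gene name, as names starting with Rpl or Rps and a number, plus Rplp0, Rplp1, Rplp2 and Rpsa. S6 kinase genes, Rps19bp1 and names marked as pseudogenes were left out, and a gene had to reach at least 10 counts in at least 5 of the 23 libraries. This gave 84 genes of the 24062 in the files, 34 named for the small subunit and 50 for the large subunit. Of the 103 matching names, 19 were left out, 2 of them for low counts. These were Rpl10l, with 0 counts in every library, and Rpl39l, with at most 9.

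Each ribosome carries a single copy of most of these proteins on its ribosomal RNA, apart from the acidic stalk proteins Rplp1 and Rplp2, which are present in several. The genes lie scattered over the genome and their messages are among the most abundant of any cell. Many of the messages begin with a C followed by a run of pyrimidines, called a 5′ terminal oligopyrimidine or TOP start, through which the mTOR kinase controls their translation. Control of these genes is thus known to act in large part on translation, which RNA levels do not show.

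The 23 libraries came from polyA RNA of liver, 1 per mouse, on a B6/129 background. Ehhadh codes for the peroxisomal L-bifunctional enzyme of fatty acid oxidation, and wild-type (WT) and Ehhadh knockout (KO) mice were given saline or L-AC, an agent that the labels name only by this abbreviation. Saline was given to 7 WT mice aged 29 to 45 weeks and to 5 KO mice aged 31 to 44 weeks. L-AC was given to 6 WT mice aged 28 to 44 weeks and to 5 KO mice aged 28 to 38 weeks. Depth ran from 24521896 to 48095959 counts. The labels give neither the dose and duration of treatment nor the design of the knockout allele. Levels are given as CPM, the usual scale of counts relative to library size, here after correction for composition. Under saline Ehhadh lay at 635 to 1635 CPM in WT libraries and at 90.9 to 253 CPM in KO libraries. Under L-AC it lay at 10260 to 14650 CPM in WT and at 1421 to 2144 CPM in KO libraries, so that each KO group lay below the WT group of the same treatment. The liver label was checked with 10 hepatocyte markers, which were all detected.

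The starts of some of these genes are shown because a TOP start is the sequence feature the family is best known for. Each line gives 10 bases before and 20 bases from the start annotated by RefSeq on GRCm38, and capitals mark a C followed by at least 4 pyrimidines at that start.
Rps6, chr4:86857348-86857377, minus strand: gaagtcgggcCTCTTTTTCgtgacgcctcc
Rpl15, chr14:18270967-18270996, minus strand: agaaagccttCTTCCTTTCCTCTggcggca
Rps18, chr17:33955646-33955675, minus strand: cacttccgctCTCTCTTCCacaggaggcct
Rps15a, chr7:118116128-118116157, minus strand: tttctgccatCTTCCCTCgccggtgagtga
Rplp2, chr7:141447641-141447670, plus strand: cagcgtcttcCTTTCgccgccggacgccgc
Rpl35a, chr16:33056472-33056501, plus strand: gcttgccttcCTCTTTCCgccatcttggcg
Rpl12, chr2:32961702-32961731, plus strand: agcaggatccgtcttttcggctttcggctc
Rps12, chr10:23787190-23787219, minus strand: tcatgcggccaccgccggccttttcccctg
Rpl22l1, chr3:28805498-28805527, plus strand: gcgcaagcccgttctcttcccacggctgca
The first 6 hold the tract at the annotated start and the last 3 do not, and both sets hold genes that were called under L-AC and are described below by their values. In Rpl22l1 the gene models of the count files start 3 bases further on, at base 28805511, where a tract of 8 bases begins. RefSeq promoters at the locus of the files were found for 62 of the 84 genes. The tract stood at an annotated start of 13 of these 62 genes (21.0%) and of 813 of all 27025 genes with a promoter there (3.01%). With the start of the count files' gene models, which lay within the promoter for 60 members, 11 held the tract, and 15 held it at either start. The count thus depends on the annotation, and a gene with several annotated starts, as Rpl35a, counted once if any of them had it.

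Other motifs were searched on both strands from 250 bases before to 50 after the start. CCGGAAG, the core letters bound by ETS factors such as Gabpa, was present in 25 of the 62 genes (40.3%) and in 9.93% of all genes. GCCATNTT, a core bound by Yy1, was present in 13 of the 62 (21.0%) and in 6.96% of all genes. GGGCGG, the core bound by Sp1, was present in 62.9% against 38.2%. TATAAA, the TATA box, was present in 11.3% against 15.7%. These are matches of letters, and binding was not measured. The CCGGAAG of Rps6, with 10 bases on either side, is shown with the motif in capitals, since the same gene carries a TOP start.
Rps6, motif at position -91 from the start: taatctacgcCCGGAAGtaacgcccct

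The genes are short, with a median exon length of 696 bases against 2798 for all genes tested, and they have 1 to 11 exon blocks with a median of 5. They lie on 19 chromosomes, and chromosome 7 holds 14 of them. Their level was set on a common scale as CPM per kilobase of exon, which removes most of the effect of length on read number. The median level was 230.2 CPM per kb against 4.78 for all genes tested. Between 100 and 400 CPM per kb lay 70 of the 84 genes, with 4 above and 10 below.

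The highest levels were those of Rplp1, an acidic stalk protein, at 626 CPM per kb, Rpl10, which is added late to the large subunit, at 540.0, Rps9 at 503 and Rps18 at 492.9, followed by Rps2 at 399. In the 4 groups Rplp1 lay between 597 and 680 CPM per kb. The lowest were Rpl3l, the muscle paralog of Rpl3, at 0.182 CPM per kb, Rps4l at 16.2, Rps15a at 18.9, Rpl7l1 at 27.6 and Rpl15 at 49.1. Rps15a has 5134 bases of exon in the gene models, and its mean before division by length was 97.2 CPM. Rpl3l had 3 to 24 counts per library, so its values carry a wide counting error.

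Some counts are shared between genes, because a read over 2 genes was counted for both and strand was ignored. The gene models place Rps27rt on exons of Rps27, and their values are nearly equal in every library (137 and 138 CPM in WT saline 1), so both report the same reads. Rpl34 shares exon bases with Rpl34-ps1, Rpl26 with Gm15772 and Rpl30 with Gm12191. Rpl5, Rpl31, Rpl32, Rpl35, Rps25 and Rps27a overlap a gene on the opposite strand, over 964 bases in Rpl5. Processed pseudogenes of the family are common in mammals, and a read that fits several copies was counted at its primary alignment.

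Under L-AC, most ribosomal protein genes stood slightly higher, and few by much. In WT mice 19 of the 84 genes rose and 2 fell with an edgeR adjusted p under 0.05. The 21 genes called make 25% of the family, while 53.3% of all 14196 genes tested were called, 26.6% higher and 26.7% lower. Of the 4311 genes tested at 32 CPM or more, where most members lie, 63.3% were called, and their median log2 fold change was 0.04. The median log2 fold change was 0.12 in the family and -0.01 over all genes. Of the family's values 70 of 84 were positive, against 6996 of all 14196 genes. The members come from the same mice and move together, as given below, so their values are not separate observations. The family's values ran from -0.35 to 0.97 with an SD of 0.19, against an SD of 0.83 over all genes. A log2 change beyond 0.5 in size was seen in 4 of the 84 genes (4.76%) and in 38.4% of all genes. No member changed by 2-fold or more.

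In KO mice 15 genes rose and 2 fell, so that 20.2% of the family was called, against 48.8% of all genes, 25.2% higher and 23.6% lower. Of the genes at 32 CPM or more, 59.7% were called, with a median log2 fold change of 0.05. Of the family's values 71 of 84 were positive, again from the same mice, against 7042 of all 14196 genes, and the family's median was 0.14. This median was 0.09 without KO saline 5 and 0.08 without KO L-AC 1. Called in both genotypes were 14 genes, called in WT alone 7 and in KO alone 3. The difference between the genotypes was tested as an interaction, and no member was called by it. The groups of libraries did not overlap for 7 members in KO mice, where 32.6% of all genes had groups that did not overlap, and for 0 members in WT mice, where the share over all genes was 24.1%. The 7 were Rpl3, Rpl12, Rpl10a, Rpl22l1, Rps12, Rps19 and Rps27l.

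**Figure D1:**
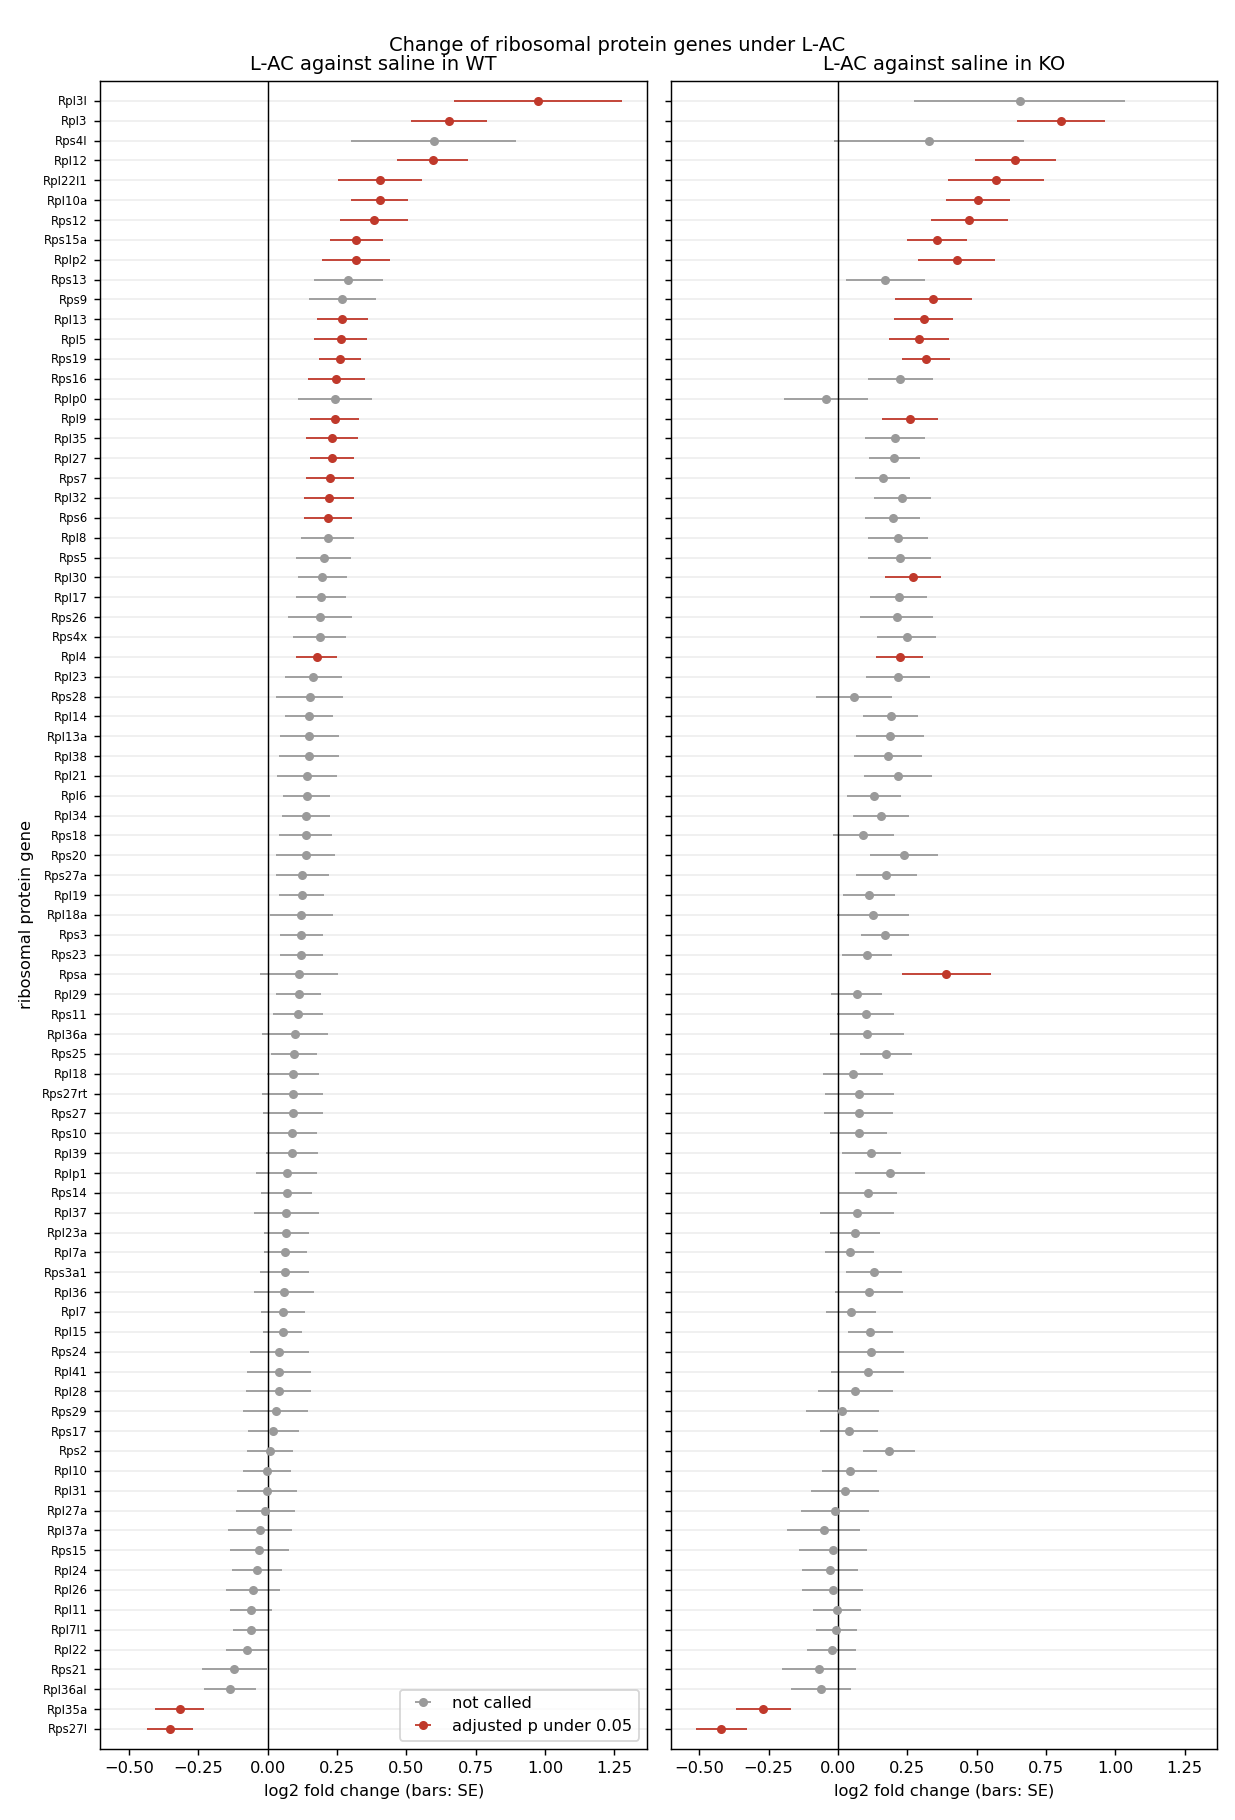
Log2 fold change of 83 of the 84 genes under L-AC in WT mice (left) and KO mice (right), ordered by the value in WT, with SE bars and called genes in red. Most points lie between 0 and 0.25, with Rpl3 and Rpl12 above and Rps27l and Rpl35a below.

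These counts depended on single libraries. In WT mice, 11 genes were called higher without WT saline 4, 9 without WT saline 5, 12 without WT L-AC 1, 9 without WT L-AC 2 and 9 without WT L-AC 4. In KO mice, 8 genes were called higher without KO saline 5, 7 without KO L-AC 1 and 9 without KO L-AC 4. The call of Rpl35a in KO mice was lost without KO saline 2, KO L-AC 3, KO L-AC 4 or KO L-AC 5, leaving 1 gene called lower.

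The summed counts of the family moved in the same direction. They made up 1.16% to 1.52% of the counted reads in WT saline with a median of 1.38%, and 1.32% to 1.78% with a median of 1.61% in WT L-AC. In KO saline the 5 libraries lay at 1.37%, 1.51%, 1.37%, 1.47% and 1.22%, and in KO L-AC at 2.09%, 1.73%, 1.54%, 1.61% and 1.47%. The groups overlapped in both genotypes, with 4 of 6 WT L-AC libraries and 4 of 5 KO L-AC libraries above the highest saline library of their genotype. The mean share was 1.15 times as high under L-AC in WT mice and 1.21 times in KO mice. The shares are of raw totals, without the correction for composition that the fold changes have, so their sizes are not directly comparable. These are shares of polyA RNA, and a change in the cells present cannot be told apart from a change in RNA per cell.

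The sums of both subunits were higher in like measure. The ratio of small- to large-subunit counts was 0.689 ± 0.013 (SD, n = 7) in WT saline, 0.691 ± 0.0090 (n = 5) in KO saline, 0.685 ± 0.0043 (n = 6) in WT L-AC and 0.695 ± 0.010 (n = 5) in KO L-AC. In WT mice 6 of 34 small-subunit genes and 13 of 50 large-subunit genes rose, with medians of 0.12 each on the log2 scale. In KO mice the numbers were 5 and 10, with medians of 0.17 and 0.12. Of all genes tested, 26.6% rose in WT and 25.2% in KO.

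**Figure D2:**
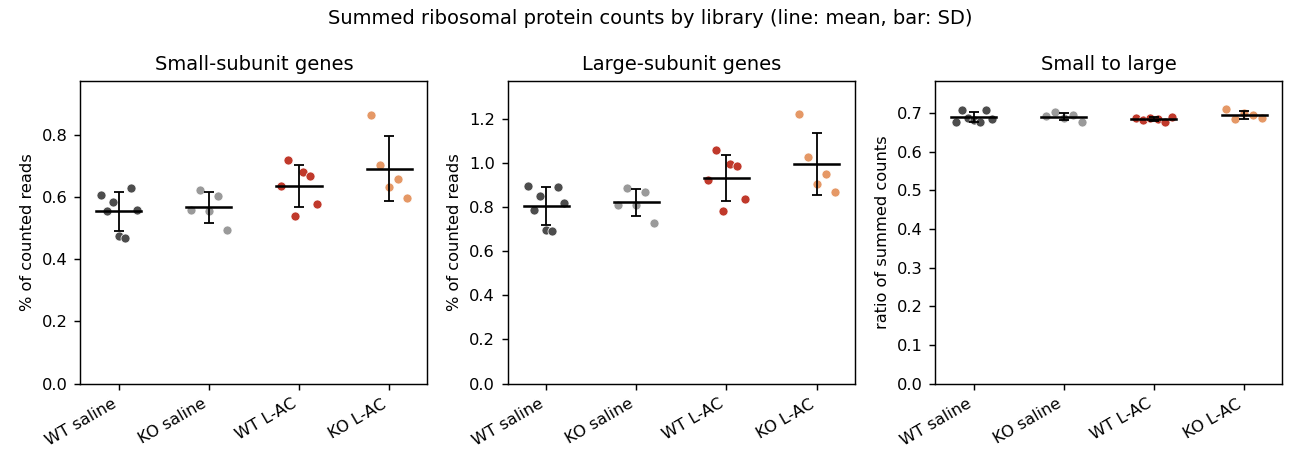
Share of counted reads on small-subunit genes (left) and large-subunit genes (middle) and the ratio of both sums (right), with 1 point per library, the mean and the SD. The shares are higher in most L-AC libraries, while the ratio lies between 0.677 and 0.710 in every library.

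Rpl3 (chr15:80077781-80083406 on mm10), a large-subunit protein that reaches towards the catalytic centre of the ribosome, rose most among the abundant members. It lay at 140 to 279 CPM in WT saline with a median of 182 and at 208 to 366 CPM in WT L-AC with a median of 324. The KO saline libraries lay at 178, 217, 193, 208 and 172 CPM and the KO L-AC libraries at 395, 304, 331, 312 and 349 CPM. In WT mice 5 of the 6 L-AC libraries were above every saline library, and in KO mice all 5 were. The log2 fold change was 0.65 ± 0.14 (SE) in WT, with an edgeR adjusted p of 0.000391, and 0.80 ± 0.16 in KO, with an edgeR adjusted p of 0.000219.

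Rpl12 (chr2:32961712-32964045) and Rpl10a (chr17:28328471-28331033) belong to the mobile stalks of the large subunit, Rpl12 at the base of the acidic stalk and Rpl10a in the stalk at the exit side. Rpl12 lay at 96.5 to 156 CPM in WT saline with a median of 127 and at 123 to 218 CPM in WT L-AC with a median of 205. KO saline held 126, 123, 128, 136 and 111 CPM of it, and KO L-AC 246, 188, 178, 179 and 181 CPM. Only WT L-AC 3, at 123 CPM, fell among the saline libraries of its genotype. Rpl12 rose 1.51-fold in WT (log2 0.60 ± 0.13 SE, edgeR adjusted p = 0.000476) and 1.56-fold in KO (0.64 ± 0.15, edgeR adjusted p = 0.00100). Rpl10a rose 1.32-fold in WT, from a mean of 142 ± 21.1 CPM (SD, n = 7) to 188 ± 23.3 (n = 6), and 1.42-fold in KO, with edgeR adjusted p of 0.00212 and 0.00112. WT L-AC 3 was again the lowest L-AC library of its genotype, at 148 CPM.

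Among the acidic stalk proteins, Rplp2 rose and the other two were not called. Rplp2 had log2 changes of 0.32 ± 0.12 in WT (edgeR adjusted p = 0.0329) and 0.43 ± 0.14 in KO (edgeR adjusted p = 0.0149), and the call was lost in KO without KO L-AC 1. In WT the Rplp2 call was lost without WT saline 2, WT saline 4, WT saline 5, WT L-AC 2 or WT L-AC 4. Rplp0, a scaffold of the stalk that is often used as a reference gene, had values of 0.24 ± 0.13 in WT and -0.04 ± 0.15 in KO. It varied widely between mice of a group, from 200 to 380 CPM in WT saline and with 275, 323, 364, 314 and 214 CPM in KO L-AC.

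Small-subunit genes that rose in both genotypes were Rps12, Rps15a and Rps19, the last known for its mutations in human Diamond-Blackfan anemia. Rps12 lay at 102 to 167 CPM in WT saline with a median of 129 and at 142 to 210 CPM in WT L-AC with a median of 172. Its KO saline values were 138, 147, 132, 143 and 108 CPM, below all 5 KO L-AC values of 228, 197, 162, 184 and 153 CPM. Rps12 changed by 0.38 ± 0.12 in WT and 0.47 ± 0.14 in KO on the log2 scale, with edgeR adjusted p of 0.0115 and 0.00772. Rps19 changed by 0.26 ± 0.07 and 0.32 ± 0.09, with edgeR adjusted p of 0.00553 and 0.00396, and Rps15a by 0.32 ± 0.10 and 0.36 ± 0.11, with edgeR adjusted p of 0.00753 and 0.00956. Calls of all 3 stood when any 1 library was left out.

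Rps27l (chr9:66946118-66949509) and Rpl35a (chr16:33056453-33060188) were the members that fell. RPS27L is known in human cells as a target of the tumor suppressor p53, and Rpl35a is a large-subunit protein whose human gene is mutated in some cases of Diamond-Blackfan anemia. Rps27l lay at 106 to 140 CPM in WT saline with a median of 129 and at 92.5 to 107 CPM in WT L-AC with a median of 99.5. KO saline libraries held 131, 129, 121, 135 and 121 CPM of it and KO L-AC libraries 93.5, 114, 77.7, 98.7 and 92.0 CPM. In WT mice 5 of 6 L-AC libraries were below every saline library, and in KO mice all 5 were. Rps27l fell by 21.7% in WT (log2 -0.35 ± 0.08 SE, edgeR adjusted p = 0.000990) and by 25.3% in KO (-0.42 ± 0.09, edgeR adjusted p = 0.000713).

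Rpl35a lay at 124 to 167 CPM in WT saline with a median of 144 and at 102 to 131 CPM in WT L-AC with a median of 113. In KO mice it went from 152, 175, 140, 150 and 133 CPM to 145, 128, 110, 122 and 117 CPM, and 4 of the 5 L-AC libraries were below every saline library. It fell by 19.7% in WT (edgeR adjusted p = 0.00417) and by 17.0% in KO (edgeR adjusted p = 0.0283).

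**Figure D3:**
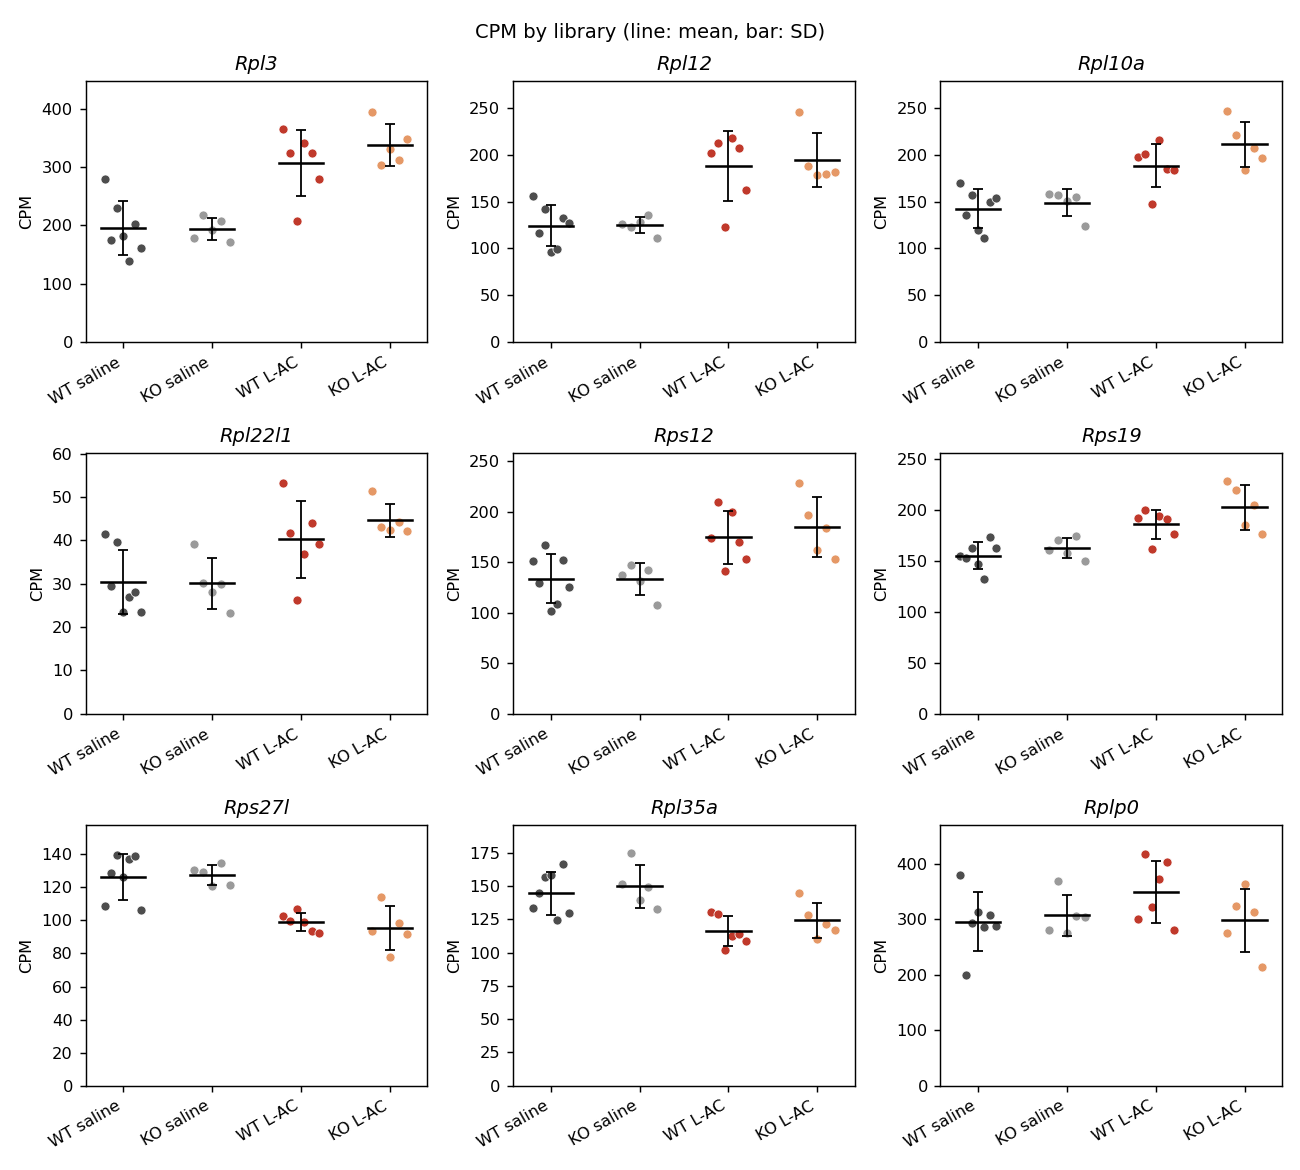
CPM of 9 members, 1 point per library in the 4 groups, with the mean and the SD. Rpl3, Rpl12, Rpl10a, Rpl22l1, Rps12 and Rps19 are higher under L-AC in KO mice without overlap, Rps27l is lower, and Rplp0 spreads widely within groups.

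Other genes called higher in WT were Rpl3l, Rpl13, Rpl27, Rpl5, Rpl9, Rpl22l1, Rps7, Rpl35, Rps6, Rpl32, Rps16 and Rpl4. Rpl3l and Rpl22l1, with larger changes, are given with the paralogs. Rpl4 had the smallest change called in WT, at 0.18 ± 0.07 (edgeR adjusted p = 0.0473), and Rpl13 a change of 0.27 ± 0.09 (edgeR adjusted p = 0.0177). With 1 of the 23 libraries left out in turn, the WT call of Rpl4 was lost 15 times, that of Rps16 11 times, that of Rps6 9 times, those of Rpl32 and Rpl35 8 times each, that of Rps7 6 times, those of Rpl5 and Rpl9 3 times each and those of Rpl13 and Rpl27 1 time each. In KO the calls of Rpl9 and Rpl30 were lost 6 times each, that of Rpl4 5 times, that of Rpl5 4 times and that of Rpl13 2 times. In KO the other genes called were Rpl22l1, Rpl13, Rpl5, Rpl30, Rpl4, Rpl9, Rps9 and Rpsa. Rpsa, also known as a precursor of a laminin receptor, had its KO call (0.39 ± 0.16, edgeR adjusted p = 0.0491) with KO L-AC 1 at 501 CPM and the other 4 KO L-AC libraries at 294 to 344 CPM. That call was lost without any 1 of 14 libraries, KO L-AC 1 among them. Rps9 had 0.34 ± 0.14 in KO (edgeR adjusted p = 0.0455) and 0.27 ± 0.12 in WT, where it was not called. Its KO call was also lost without any 1 of 14 libraries.

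Among changes that were not called, the largest in WT were those of Rps4l at 0.60 ± 0.30, Rps13 at 0.29 ± 0.12, Rps9 and Rplp0. In KO, Rpl3l at 0.65 ± 0.38, Rps4l at 0.33 ± 0.34 and Rps4x at 0.25 ± 0.11 were among the larger changes that were not called. Rps4l ran from 7.87 to 19.4 CPM in WT saline and from 10.5 to 30.9 CPM in WT L-AC.

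A list of 10 members with another known role, disease link or use held Rpl5, Rpl11, Rps6, Rplp0, Rpl13a, Rps3, Rpl26, Rps14, Rps19 and Rpsa. Of these, 3 rose in WT and 3 in KO and 0 fell, where 26.6% and 25.2% of all genes rose. Rps27l, given above as a p53 target, and Rpl35a, linked above to Diamond-Blackfan anemia, were not on this list. They are the members that fell, so the 0 holds for the listed genes alone. Rpl5 and Rpl11 together hold back the p53 inhibitor Mdm2 when ribosome assembly fails. Rpl5 changed by 0.26 ± 0.10 in WT (edgeR adjusted p = 0.0234) and 0.29 ± 0.11 in KO (edgeR adjusted p = 0.0298), while Rpl11 had -0.06 ± 0.08 and -0.00 ± 0.09. Rps6, the substrate of the S6 kinases, rose in WT by 0.22 ± 0.09 (edgeR adjusted p = 0.0397) and had 0.20 ± 0.10 in KO, where it was not called. Rpl13a, which also silences certain inflammatory messages, had 0.15 ± 0.11 and 0.19 ± 0.12. Rps3, which also acts in DNA repair, had 0.12 ± 0.08 and 0.17 ± 0.09. Rpl26, which binds the p53 message in human cells, had -0.05 ± 0.10 and -0.02 ± 0.11, and Rps14, lost in a human myelodysplastic syndrome, had 0.07 ± 0.09 and 0.11 ± 0.10.

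The members moved together from mouse to mouse. After the mean of each group was taken off the log2 CPM values, the median correlation r between 2 members was 0.84 over the 23 libraries, and 64 of the 84 genes had a median r above 0.8 with the others. For the 4226 other genes at a mean of at least 32 CPM, the median r between 2 genes was 0.03. All points share the library, its depth and its scaling, and Rps27 and Rps27rt share their reads. The family's median deviation from the group mean ran from -0.22 in KO L-AC 3 to 0.26 in KO L-AC 1. WT L-AC 3 was low among the WT L-AC libraries, at -0.21. These deviations were larger in size than the family's median changes under L-AC, 0.12 in WT and 0.14 in KO. Least tied to the others were Rpl3l, with a median r of 0.14, Rplp0 with 0.25, Rps27l with 0.26, Rps4l with 0.41 and Rpl7l1 with 0.54.

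**Figure D4:**
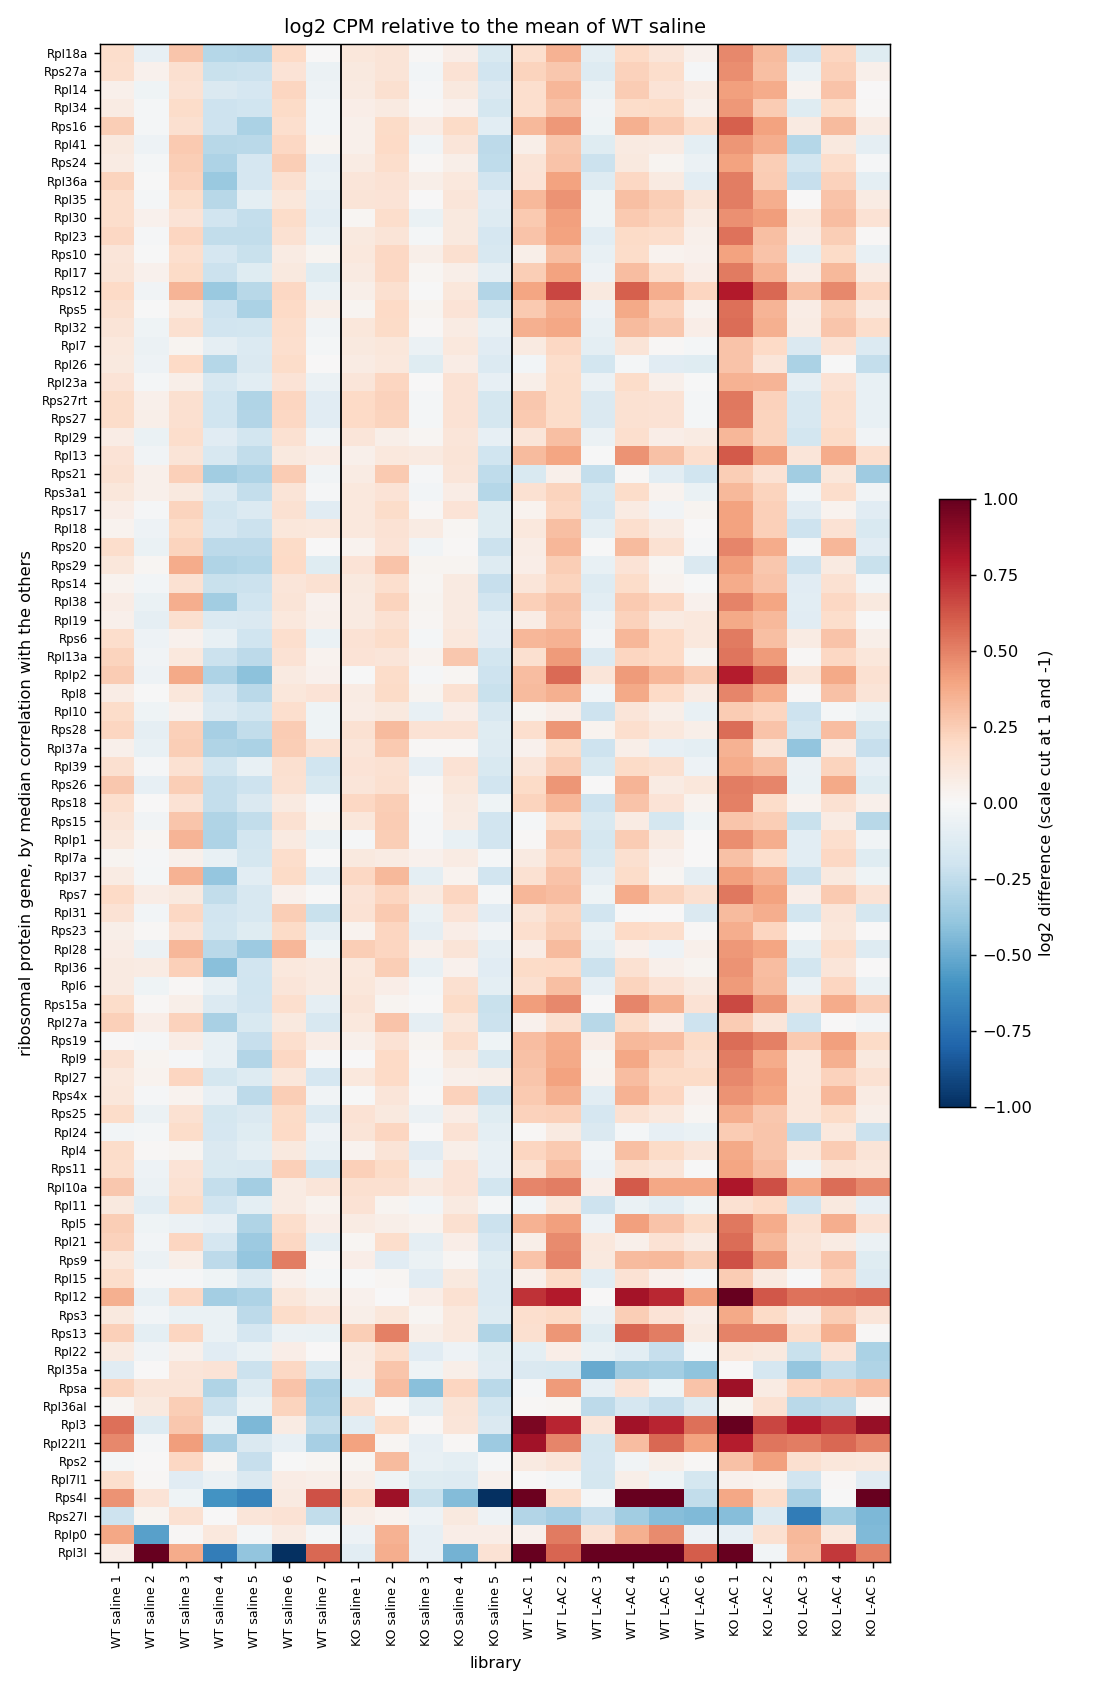
Difference of log2 CPM from the mean of WT saline for 83 of the 84 genes (rows) in 23 libraries (columns), red for higher and blue for lower, with rows ordered by median correlation with the other members. Whole columns share a shade, as in KO L-AC 1 and WT saline 5, while Rps27l, Rplp0 and Rpl3l at the bottom do not follow.

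Since the whole family shifts from mouse to mouse, the comparison was repeated with the summed counts of the 84 genes as the scaling, which asks which members gain or lose within the family. This scaling was added after the data were seen, and it moved the median of all genes to -0.15 in WT and -0.17 in KO. Within the family, 7 genes were higher and 8 lower in WT, against 45.7% of all genes called, and 7 were higher and 6 lower in KO, against 42.4%. Higher in both were 6 genes, namely Rpl3, Rpl12, Rpl10a, Rps12, Rplp2 and Rps15a. Lower in both were 5 genes, namely Rps27l, Rpl35a, Rps21, Rpl24 and Rpl26. Relative to the family, Rpl3 stood at 0.52 ± 0.11 (edgeR adjusted p = 0.000633) in WT and 0.65 ± 0.13 (edgeR adjusted p = 0.000312) in KO, and Rps27l at -0.49 ± 0.11 (edgeR adjusted p = 0.000729) and -0.59 ± 0.12 (edgeR adjusted p = 0.000535). Rps21, a small-subunit protein, stood at -0.25 ± 0.07 and -0.24 ± 0.08 with edgeR adjusted p of 0.00901 and 0.0246, though it was not called under TMM, the scaling of edgeR, with -0.12 ± 0.12 and -0.07 ± 0.13.

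Paralogs can replace their parent protein in ribosomes of some tissues, so the level of each was set against its parent. Rpl22l1 had 18.7% to 31.2% of the counts of Rpl22 in WT saline with a median of 22.5%, and 22.0% to 45.5% with a median of 31.8% in WT L-AC. In KO mice it went from 29.8%, 21.3%, 24.3%, 24.8% and 20.1% to 37.9%, 32.2%, 39.4%, 32.2% and 42.0%, without overlap. Rpl22l1 itself rose by 0.41 ± 0.15 in WT (edgeR adjusted p = 0.0279) and 0.57 ± 0.17 in KO (edgeR adjusted p = 0.00932), and its WT call was lost without any 1 of WT saline 4, WT saline 5, WT saline 7, WT L-AC 1 and WT L-AC 5. Rpl22 had -0.07 ± 0.08 and -0.02 ± 0.09.

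Rps27l had 79.1% to 138% of the counts of Rps27 in WT saline and 69.8% to 97.2% in WT L-AC. In KO mice it went from 93.8%, 91.0%, 101%, 100.5% and 113% to 53.6%, 80.7%, 71.6%, 72.4% and 79.5%, again without overlap. Rps27 had 0.09 ± 0.11 in WT and 0.07 ± 0.12 in KO, and Rps27rt, which reports the same reads, 0.09 ± 0.11 and 0.08 ± 0.12.

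Of 28 exact two-sided permutation tests, over 7 paralog ratios and 4 comparisons, 7 had an unadjusted p under 0.05 and 0 passed a Benjamini-Hochberg adjustment. The log2 ratio of Rps27l to Rps27 differed by -0.44 in WT (exact permutation p = 0.00466, adjusted p = 0.0741) and -0.49 in KO (exact permutation p = 0.00794, adjusted p = 0.0741). That of Rpl22l1 to Rpl22 differed by 0.48 in WT (exact permutation p = 0.0245, adjusted p = 0.125) and 0.62 in KO (exact permutation p = 0.00794, adjusted p = 0.0741). The value of 0.00794 is the smallest that 5 against 5 libraries can give. Without WT L-AC 3, 2 of the tests passed.

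Other paralogs were set against their parents in the same way. Values are means ± SD for saline and then L-AC, with n = 7 and 6 in WT and 5 and 5 in KO. Rpl36al stood at 124% ± 13.02 and 106% ± 11.2 of Rpl36a in WT and at 120.0% ± 7.91 and 109% ± 19.9 in KO. Rpl7l1 stood at 31.5% ± 1.85 and 29.1% ± 1.26 of Rpl7 in WT and at 30.2% ± 3.13 and 29.1% ± 2.09 in KO. Rps4l stood at 5.90% ± 1.77 and 7.80% ± 3.02 of Rps4x in WT and at 5.52% ± 2.52 and 5.98% ± 2.75 in KO. Rps4l has 1 exon block in the gene models against 6 in Rps4x, and whether reads of Rps4x were placed on it was not tested. Rpl3l stood at 0.118% ± 0.0742 and 0.148% ± 0.05004 of Rpl3 in WT and, in the other direction, at 0.1001% ± 0.0228 and 0.0878% ± 0.0239 in KO. None of these ratios passed the adjusted threshold. Rpl3l rose in WT mice by 0.97 ± 0.30 (edgeR adjusted p = 0.00992) on 3 to 24 counts per library. Rpl39l was too low for a ratio to be read.

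No ribosomal protein gene was called between the genotypes. Under saline, 0 of the 84 genes were called between KO and WT, against 0.0141% of all genes, and 0 had an unadjusted p under 0.05. Under L-AC, 0 were called, against 0.0141%, and Rps2 was the 1 member with an unadjusted p under 0.05. Rps2 had a value of 0.21 ± 0.09, with an edgeR adjusted p of 0.9996. The median log2 difference was 0.04 under saline and 0.06 under L-AC, where 80 of the 84 values were positive, and all values share the same 11 mice. With 1 library left out these medians ran from 0.003 to 0.0796 and from -0.009 to 0.115, the value under L-AC being negative without KO L-AC 1. DESeq2 and limma-voom also called 0 members in both comparisons.

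The interaction of genotype and L-AC called 0 members and 0.0% of all genes, and 0 members had an unadjusted p under 0.05, against 320 of all genes. Rplp0 had the smallest p of the family, with a value of -0.29 ± 0.20, followed by Rps2 at 0.17 ± 0.12. For Rpl3 the interaction was 0.15 ± 0.21 and for Rpl12 0.04 ± 0.19, so that differences between the genotypes of the size of these errors could not be seen.

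Other genes of ribosome production and translation were set beside the family, and their counts are read against all genes tested, of which 26.6% rose and 26.7% fell in WT and 25.2% rose and 23.6% fell in KO. Of 48 ribosome biogenesis genes tested, 36 rose and 2 fell in WT and 40 rose in KO, with median log2 changes of 0.49 and 0.61. Among them Ltv1, an export factor of the small subunit, rose by 1.06 ± 0.12 and 1.25 ± 0.14 (edgeR adjusted p = 3.67e-07 and 3.80e-07), and Ncl, nucleolin, by 0.81 ± 0.10 in WT (edgeR adjusted p = 4.19e-07). Of 15 genes of RNA polymerase I and its factors, which make the ribosomal RNA precursor, 11 rose in each genotype and 1 fell in WT, with medians of 0.41 and 0.43. Of 39 initiation factors, 28 rose in each genotype, with 2 and 1 falling and medians of 0.30 and 0.43. Eif6, which keeps the subunits apart, rose by 0.98 ± 0.10 and 1.23 ± 0.12 (edgeR adjusted p = 8.13e-08 and 3.33e-08).

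Of 18 other messages on a list of TOP messages, 9 rose and 1 fell in each genotype (55.6% called), with medians of 0.17 and 0.25. The list was set by gene name, and some of its genes are also in the other lists. Of all genes, 53.3% were called in WT, 26.6% higher and 26.7% lower, and 48.8% in KO, 25.2% higher and 23.6% lower. Pabpc1, the polyA binding protein, rose by 0.72 ± 0.09 and 0.77 ± 0.11, and Eif4b fell by 0.45 and 0.57 on the log2 scale. Of 13 elongation and termination genes, 8 rose and 1 fell in each genotype (69.2% called), the gene that fell being Eef2k, the kinase that inhibits elongation factor Eef2.

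Among 29 regulators of the family, 13 rose and 3 fell in WT and 12 rose and 3 fell in KO, which makes 55.2% and 51.7% called. Of all genes, 53.3% were called in WT, 26.6% higher and 26.7% lower, and 48.8% in KO, 25.2% higher and 23.6% lower. Mtor rose by 1.60 ± 0.13 and 1.48 ± 0.15, Eif4ebp1, the repressor that mTOR inactivates, by 0.74 ± 0.14 and 0.92 ± 0.16, and Myc by 2.25 ± 0.38 and 2.73 ± 0.44. Larp1, which binds TOP starts, had 0.11 ± 0.09 and 0.13 ± 0.10 and was not called. Gabpa rose by 0.18 ± 0.07 in WT (edgeR adjusted p = 0.0338). In nascent chain handling, 10 of 23 genes rose and 5 fell in WT (65.2% called) and 12 rose and 1 fell in KO (56.5%). In ribosome quality control and storage 5 of 13 rose in each genotype, with 0 falling. The 38.5% called, against 53.3% of all genes in WT and 48.8% in KO, were thus all higher. Of all genes, 26.6% rose in WT and 25.2% in KO. Within the family itself, the 13 genes with the tract at a RefSeq start had medians of 0.14 in WT and 0.12 in KO, and the 49 without it there 0.12 and 0.13. Some of the 49, as Rpl22l1 and Rpl11, held the tract at the start of the count files' gene models. The split thus depends on the annotation, may not separate TOP messages from others, and was not tested.

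**Figure D5:**
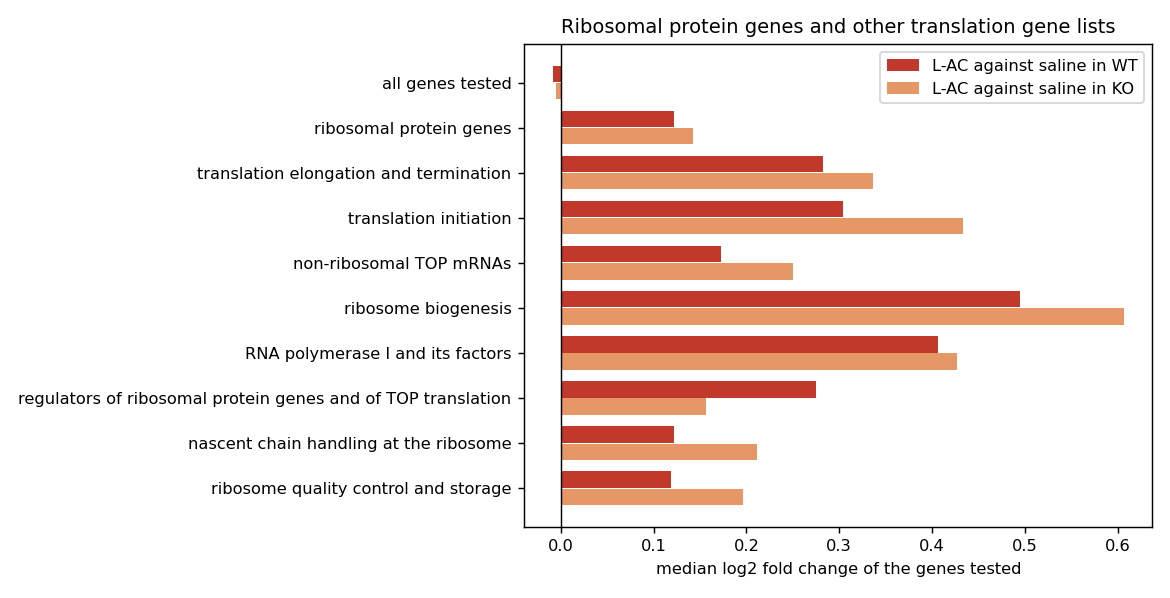
Median log2 fold change under L-AC of the genes tested in each list, with all genes and the ribosomal protein genes at the top, in WT (dark) and KO (light) mice. Ribosome biogenesis has the longest bars, at 0.49 and 0.61, and the ribosomal protein genes lie at 0.12 and 0.14.

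Markers of liver cell types were read in the same fit, where 26.6% of all genes rose and 26.7% fell in WT and 25.2% rose and 23.6% fell in KO. Summed hepatocyte markers lay at 73460 to 87190 CPM in WT saline and 52600 to 63300 in WT L-AC, and at 80160 to 89990 in KO saline and 39850 to 65230 in KO L-AC. Of 10 such markers, 5 fell in WT and 6 in KO, and 0 rose. Alb made up a large part of the sum, at 34070 to 43130 CPM in WT saline and 24920 to 34000 in WT L-AC. Other markers overlapped in WT, as Hnf4a at 653.8 to 1104 CPM under saline and 742.7 to 995.1 under L-AC. Cps1 lay at 1421 to 3991 and 1937 to 4374 CPM. Of 10 Kupffer cell and macrophage markers 7 fell in WT and 3 in KO, and 1 rose in each, with sums of 92.4 to 312 and 72.7 to 136 CPM in WT and 119 to 232 and 63.8 to 195 CPM in KO. Of 6 lymphocyte markers tested, 5 fell in WT and 2 in KO, and 1 rose in each, with sums of at most 10.02 CPM in every group. Of 9 stellate and fibroblast markers, 4 rose and 1 fell in WT and 2 rose and 1 fell in KO, with sums of 126.8 to 202 and 190.5 to 246 CPM in WT. The stellate sums in KO overlapped, at 93.8 to 232 CPM under saline and 166 to 218 under L-AC. Of 8 endothelial markers 1 fell in WT and 2 in KO, of 6 cholangiocyte markers 1 fell in each genotype, of 5 erythroid markers 1 fell in each, and none of these rose. Of 2 neutrophil markers 0 were called, and of 6 proliferation markers 1 rose and 1 fell in each genotype. Endothelial sums lay at 177 to 319 CPM in WT saline, 214 to 277 in WT L-AC, 226 to 279 in KO saline and 217 to 281 in KO L-AC. Proliferation markers summed to 5.26 to 7.93 CPM in all libraries. The part of these markers in the changes of the ribosomal protein genes was not tested.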

How the data were processed

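Liver polyA RNA of 23 mice was read as single-end reads, per the labels' protocols. The deposited values are raw counts of reads per gene, made by the authors with featureCounts 1.4.4 on UCSC mm10 gene models (exons by gene, primary alignments, no strand, reads counted for every gene they overlap), per the file headers. Alignment used STAR 2.4.0, per the submitters' processing notes. Totals were 24521896 to 48095959 counts per library. Groups follow the labels, with 1 library per mouse, and replicates are numbered in accession order.

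Counts were filtered by filterByExpr (minimum count 10, minimum total 15), which left 14196 genes and all 84 members, and were scaled by TMM. The quasi-likelihood test of edgeR 4.0.16 (R 4.3.3) was run on a model of the 4 group means. P-values were adjusted across all tested genes after Benjamini and Hochberg, and called, rose and fell mean an adjusted p under 0.05. CPM use the TMM-scaled library size. SE is that of a log2 fold change, its size over the square root of F. Paralog ratios are log2 ratios of counts plus 0.5, tested by exact permutation (scipy 1.17.1). Counts of replicates differed beyond sampling noise in all 56 pairs (chi-square over degrees of freedom at least 44.0), so each library counted as a sample. The fit was tested on simulated data.

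The members and the lists were chosen with earlier results of these data known. Named members were those of a rule: the 8 genes called with the smallest p in each direction and the 4 largest uncalled changes per L-AC comparison, the 5 highest and 5 lowest levels, the 5 farthest from the family median, paralogs with their parents, members with known other roles, and up to 4 called genes per list. Other members named were chosen after their values were seen. Alternatives were DESeq2 1.42.0, its size factors in edgeR, limma-voom (limma 3.58.1), other filters, scalings and thresholds, age as a covariate, only the groups compared, and each library left out. Sequences and promoters are from RefSeq (GRCm38.p6). A few named genes are not reported here, and figures that show single genes leave them out.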

Additional observations from a re-analysis of the deposited data

Results flagged for a closer look

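Of 168 groups of libraries looked at, over 41 members and the summed share, 6 held a library whose gap to its nearest neighbour was large for the range of its group. About 1 in 20 groups is marked in this way by chance. In KO saline 5, Rpl10a lay at 123.9 CPM against 150.3 to 157.9 in the other 4 libraries, Rpl13 at 145.4 against 173.1 to 183.3, and Rpl36a at 62.6 against 74.3 to 79.0. In KO L-AC 1, Rpl12 lay at 245.9 CPM against 178.3 to 188.2, Rpl22l1 at 51.3 against 42.2 to 44.2, and Rpsa at 500.8 against 293.5 to 344. These are the libraries in which the summed share of the family was lowest in KO saline, at 1.22%, and highest in KO L-AC, at 2.09%. Without KO saline 5, 8 members were called higher under L-AC in KO mice, and without KO L-AC 1, 7 were.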

How the results depend on the processing

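The medians of the family kept their sign in both L-AC comparisons under every alternative but the scaling to the family's own sum, by construction, which gave -0.01 in WT and -0.025 in KO, with 7 genes higher and 8 lower in WT and 7 and 6 in KO. An adjusted p under 0.01 left 6 higher in WT and 7 higher and 1 lower in KO. Library size without TMM gave 37 higher and 1 lower in KO, and age as a covariate 1 lower in KO, and the cause was not tested. With 1 library left out, 9 to 27 genes were higher in WT, 7 to 20 higher and 1 to 2 lower in KO, and 0 to 2 paralog tests passed, and the family's median ran from 0.09 to 0.16 in WT and 0.08 to 0.20 in KO. Without the 20 most abundant genes in the denominator, the mean shares were 1.70% (WT saline), 1.73% (KO saline), 1.93% (WT L-AC) and 2.04% (KO L-AC).

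Calls that held under every alternative in which the gene was tested were 7 in WT and 7 in KO. In WT these were Rpl3, Rpl12, Rpl10a, Rps15a, Rpl3l, Rps27l and Rpl35a. In KO they were Rpl3, Rpl12, Rpl10a, Rpl22l1, Rps12, Rps15a and Rps27l. Rpl3l was tested in 33 of the 34, since at no more than 0.668 CPM it did not pass the filter of 1 CPM in 5 libraries. No called value changed its sign. The 2 genotype comparisons and the interaction called 0 members under every alternative. No paired analysis was made, since each library came from a different mouse and the labels name no pairs. Depth limits Rpl3l most, at 3 to 24 counts.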

Other observations

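Many ribosomal protein genes carry genes of small nucleolar RNAs, which guide modifications of ribosomal RNA, in their introns. In GENCODE M21 a gene of this kind lay inside 30 of the 84 members on the same strand, 5 of them in Rpl4 and 4 in Rpl13a. The 30 hosts had median log2 changes under L-AC of 0.15 in WT and 0.22 in KO, with 9 genes called in each, and the 54 others 0.10 and 0.11, with 12 and 8 called. Of all genes tested, 53.3% were called in WT and 48.8% in KO, a larger share than in either set. A transcript annotated for nonsense-mediated decay was present in 19 members, with medians of 0.15 and 0.19, and absent from 65, with 0.11 and 0.12. Both splits were chosen after values were seen and were not tested.

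The 1189 other genes with under 1 kb of exon had medians of -0.13 in WT and -0.07 in KO under L-AC, against 0.12 and 0.14 in the family. These genes were not matched to the family in level, and the part of gene length was not tested.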
